A study of Rattus norvegicus with 20 samples.

Results

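The messenger RNAs of 6 neuronal cytoskeleton genes were followed in dorsal root ganglia of rats after sciatic nerve injury. They code for the neurofilament light (Nefl), medium (Nefm) and heavy (Nefh) chains, peripherin (Prph), alpha-internexin (Ina) and microtubule-associated protein 1B (Map1b). Every probe set that the platform's annotation assigns to 1 of these genes alone was taken, which gave 11 of the 8799 probe sets on the array, for 6 of the 4736 genes that the array represents by a single-gene probe set. Nefl and Nefh had 2 probe sets each, Ina 2, Map1b 3, and Nefm and Prph 1 each.

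A dorsal root ganglion holds the cell bodies of sensory neurons, whose peripheral axons run in the sciatic nerve. Total RNA of 20 samples, all from the operated side, was read on 1 Affymetrix rat genome array each. Ganglia were taken 14 days (n = 3) and 21 days (n = 3) after chronic constriction injury (CCI), in which loose ties are placed around the nerve. In the Seltzer groups, whose samples the labels describe as sciatic nerve transection, there were 2 samples of 14 days, 3 of 21 days and 2 of 50 days. The Seltzer model as usually done ties or cuts only a portion of the nerve, and the labels do not say how much was cut. Sham-operated rats gave 2 samples of 14 days, 3 of 21 days and 2 of 50 days. Strain, sex, age and ganglion level are not in the labels. Whether replicates are different rats is not stated either, and a p-value may then reflect technical spread alone.

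Neurofilaments are the intermediate filaments of neurons. The light chain forms the core with the medium and heavy chains, whose long tails space the filaments, and alpha-internexin and peripherin can join the same polymer. Large myelinated sensory neurons are rich in neurofilaments and set their axon calibre by them, while peripherin is prominent in small sensory neurons with unmyelinated axons. Map1b binds microtubules and is known from growing axons. A fall of neurofilament messenger RNA in the cell body is a classical response of sensory neurons to axotomy, and peripherin is known to follow a different course.

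Nefl and Nefm lie next to each other on chromosome 15 in the rat GRCr8 annotation, with 0 protein-coding genes between them. Nefh is on chromosome 14, Prph on chromosome 7, Ina on chromosome 1 and Map1b on chromosome 2. RefSeq promoter sequence (GRCr8, 250 bases before to 50 bases after the transcript start) matched 3 of the 6 genes, Prph, Ina and Map1b. The promoters of Prph and Ina are shown because the signals of both genes fell in Seltzer ganglia at 50 days, as described further on. They are written 5′ to 3′ along the gene's strand, with matches to TATAAA and GGGCGG on either strand in capitals.
Prph, chr7:132097039-132097338, plus strand: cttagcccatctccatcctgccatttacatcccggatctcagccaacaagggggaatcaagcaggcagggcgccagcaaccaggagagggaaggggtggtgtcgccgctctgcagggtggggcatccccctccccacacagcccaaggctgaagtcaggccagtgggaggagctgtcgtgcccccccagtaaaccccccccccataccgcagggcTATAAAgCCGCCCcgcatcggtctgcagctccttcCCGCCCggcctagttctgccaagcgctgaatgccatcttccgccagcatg
Ina, chr1:255837879-255838178, plus strand: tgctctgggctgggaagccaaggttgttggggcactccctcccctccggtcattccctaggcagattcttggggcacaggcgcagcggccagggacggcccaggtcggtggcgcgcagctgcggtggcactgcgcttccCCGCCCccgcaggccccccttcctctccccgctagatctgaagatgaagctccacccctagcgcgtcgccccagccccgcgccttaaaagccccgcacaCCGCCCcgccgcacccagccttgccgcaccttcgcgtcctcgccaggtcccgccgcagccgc

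The Prph promoter held 1 TATAAA, starting at position -35 (the first transcribed base is 0), and 2 GGGCGG matches, starting at -28 and 0. The Ina promoter held no TATAAA and 2 GGGCGG matches, starting at -111 and -12. The Map1b promoter held 1 TATAAA, at -48, and no GGGCGG. On neither strand of these 3 windows was CCAAT or TGACGTCA found. None of the matches overlapped another motif. Among 33469 rat promoters of the same length, 14.2% held TATAAA, 33.1% GGGCGG, 37.5% CCAAT and 1.83% TGACGTCA. The windows were 64.3% (Prph), 71.7% (Ina) and 66.7% (Map1b) G or C.

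The deposited values are intensities on a linear scale, of which 28.95% lie below 0. Background was set per array from its negative values, at the 95th percentile of their size. This gave 766 and 599 for the 2 Seltzer arrays of 50 days, 499 for CCI 21-day replicate 1, and 169 to 326 for the remaining 17. Changes are differences of log2(intensity + 16), with values below 0 set to 0, and they understate the change of dim probe sets. They come from limma fitted on all 20 arrays, with p-values adjusted by Benjamini-Hochberg over 8740 probe sets, and a probe set is called at an adjusted p under 0.05. The number of arrays limits the precision.

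Transcripts of the neurofilament chains and of peripherin were among the brightest on these arrays. The mean intensity of Nefl probe set AF031880_at stood at the 99.9th percentile of all probe sets, that of Nefm (Z12152_at) at 99.8, that of Nefh probe set rc_AA818677_at at 99.4 and that of Prph (AF031878_at) at 99.4. These 4 probe sets were above background on all 20 arrays. The other Nefl probe set, M25638_s_at, and the other Nefh probe set, X13804cds_at, were above background on 18 arrays, all but the 2 Seltzer 50-day arrays. Ina probe set M73049_at was above background on 17 of 20 arrays, the exceptions being both Seltzer 50-day arrays and Seltzer 21-day replicate 1.

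Map1b, by contrast, was hardly detected. Probe sets U52950_at and X16623cds_s_at, and Ina probe set rc_AA875659_s_at, were above background on none of the 20 arrays. Map1b probe set U52950_g_at was above background on 2, CCI 14-day replicate 2 and CCI 21-day replicate 1. In all, 7 of the 11 probe sets were above background on at least 10 arrays.

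**Figure D1:**
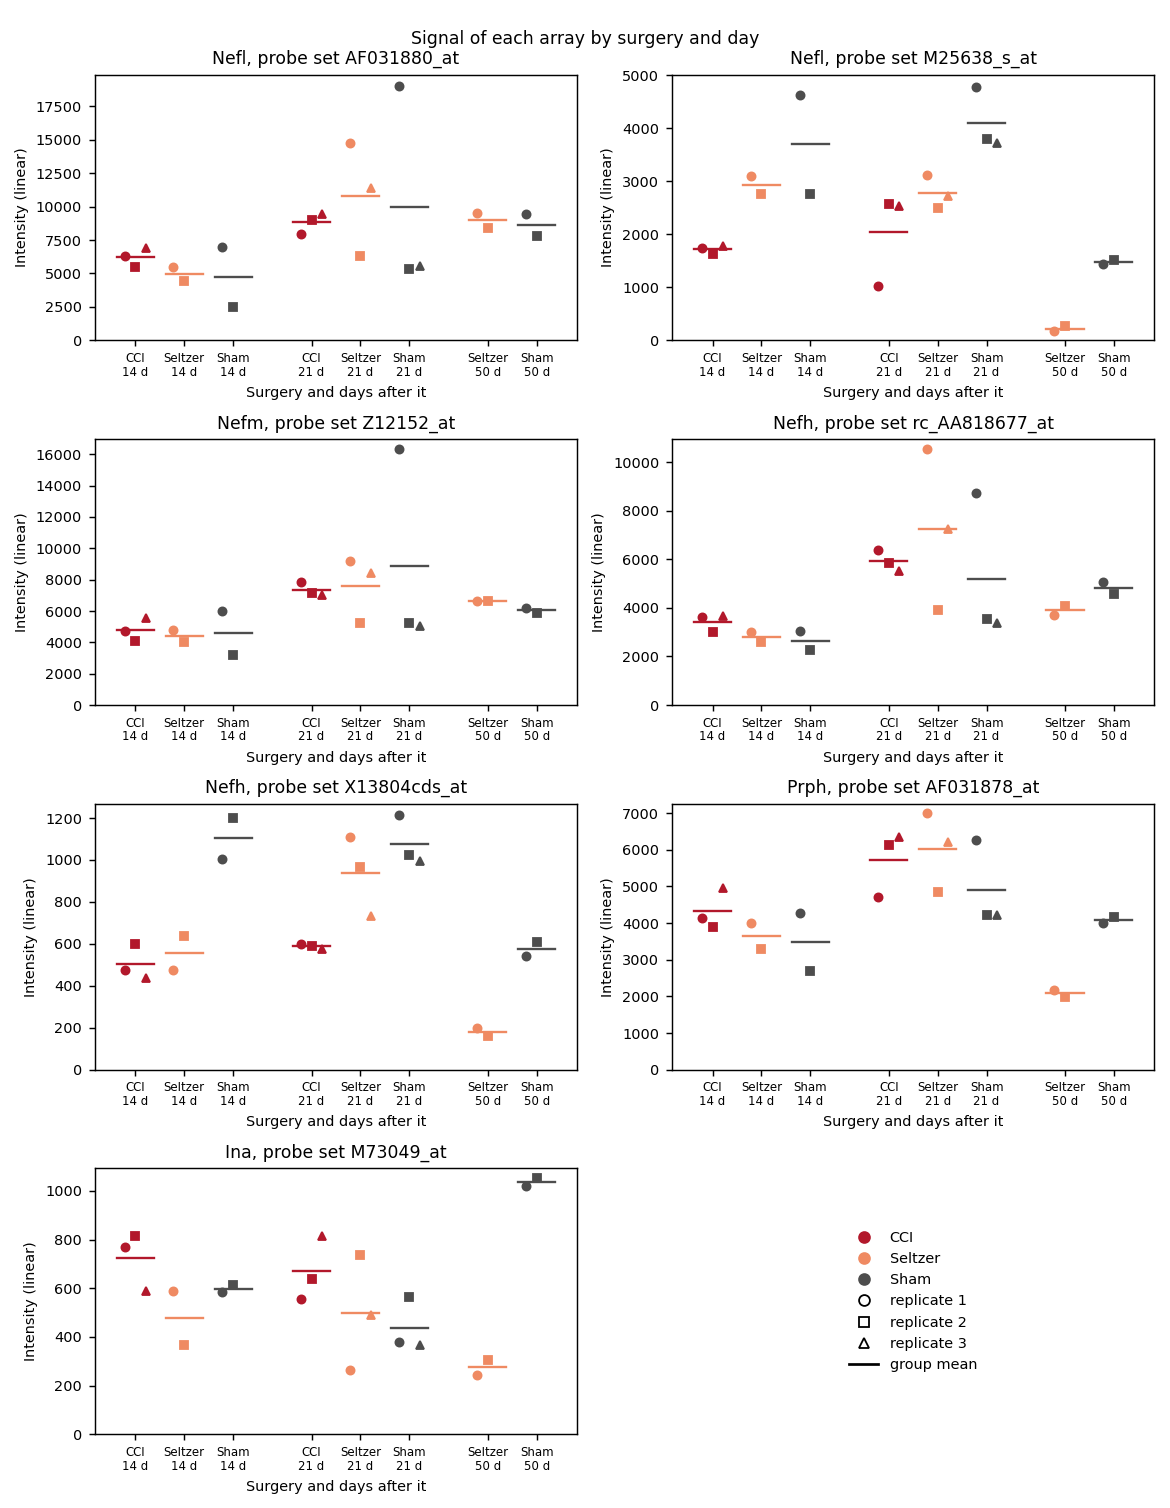
Intensity (linear scale) of the 7 probe sets that were above background on at least 10 arrays, by surgery and day. Each point is 1 array, the shape gives its replicate number and bars are group means. Nefl M25638_s_at and Nefh X13804cds_at are lower on every CCI array than on any sham array of the same day, while the other Nefl and Nefh probe sets overlap between CCI and sham.

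The light chain Nefl, the core subunit, gave 2 different readings in CCI ganglia. At 14 days, probe set M25638_s_at read 1749, 1636 and 1778 on the CCI arrays, against 4623 and 2764 on the sham arrays. At 21 days it read 1027, 2565 and 2539 on the CCI arrays, against 4780, 3791 and 3724 on the sham arrays. All 6 CCI arrays were below every sham array of their day. Over 14 and 21 days the CCI mean was 2.11-fold lower than sham, with a log2 change of -1.08 (SE 0.23) and an adjusted p of 0.0231 in limma. At the single days the changes were -1.05 (SE 0.34, adjusted p 0.17) at 14 days and -1.10 (SE 0.30, adjusted p 0.147) at 21 days, neither past the threshold.

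This call on M25638_s_at was made in 25 of 34 alternatives, with changes between -1.36 and -0.80. The 34 include fits that left out 1 array of a group outside this comparison. Without those fits, the call was kept in 16 alternatives and lost in 9. In limma the adjusted p was 0.139 with only the groups compared and 0.0992 with arrays centred on their median. With the 21-day sham arrays as control at both days it was 0.0613. Blocking on replicate number gave an adjusted p of 0.0523, so the call was lost in each of these. It also missed the threshold when any 1 of CCI 14-day replicates 1, 2 and 3 (adjusted p 0.0562, 0.0582 and 0.0533), sham 14-day replicate 1 (0.137) or sham 21-day replicate 1 (0.0527) was left out.

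The brighter Nefl probe set, AF031880_at, overlapped between CCI and sham. It read 6337, 5471 and 6905 on the CCI 14-day arrays, against 6954 and 2479 on the sham 14-day arrays. On the CCI 21-day arrays it read 7975, 8994 and 9472, against 19046, 5341 and 5535 on the sham 21-day arrays. Sham 21-day replicate 1 was the highest of all 20 arrays, while the other 2 sham arrays of that day were below all 3 CCI arrays. The log2 change over both days was 0.33 (95% interval -0.43 to 1.10, adjusted p 0.838 in limma).

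The heavy chain Nefh, which carries the longest tail, showed the same split. Probe set X13804cds_at read 475, 600 and 437 on the CCI 14-day arrays, against 1003 and 1202 on the sham 14-day arrays. On the CCI 21-day arrays it read 598, 592 and 576, against 1215, 1024 and 993 on the sham 21-day arrays. Groups did not overlap at either day. The CCI mean over both days was 1.97-fold lower than sham, with a log2 change of -0.98 (SE 0.12, adjusted p 0.000673 in limma). This was called in 34 of 34 alternatives, with changes from -1.05 to -0.92, and adjusted p was 0.0011 with the replicate block. Without the fits that left out 1 array of a group outside this comparison, it was kept in 25 alternatives and lost in 0.

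X13804cds_at was also called at each day. At 14 days the log2 change was -1.11 (SE 0.18, adjusted p 0.00415) and at 21 days -0.85 (SE 0.17, adjusted p 0.0284). The 14-day call missed the threshold without sham 14-day replicate 2 (adjusted p 0.0576). The 21-day call missed it without any 1 of the 6 arrays of that day (adjusted p 0.0615 to 0.117). The effect at 21 days minus that at 14 days was 0.26 (SE 0.25, adjusted p 0.738), which did not pass the threshold.

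The brighter Nefh probe set, rc_AA818677_at, was not called in CCI ganglia. It read 3606, 3002 and 3676 on the CCI 14-day arrays, against 3032 and 2248 on the sham 14-day arrays. On the CCI 21-day arrays it read 6377, 5845 and 5526, against 8723, 3527 and 3367 on the sham 21-day arrays. Groups overlapped at both days, at 14 days through CCI replicate 2 and at 21 days through sham replicate 1. The log2 change over both days was 0.36 (95% interval -0.23 to 0.94, adjusted p 0.752).

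The medium chain Nefm, represented by Z12152_at alone, resembled the brighter probe sets. It read 4737, 4116 and 5571 on the CCI 14-day arrays, against 5995 and 3180 on the sham 14-day arrays. On the CCI 21-day arrays it read 7879, 7146 and 7015, against 16309, 5211 and 5019 on the sham 21-day arrays. Sham values enclosed the CCI values at both days. The log2 change over both days was 0.05 (95% interval -0.58 to 0.67, adjusted p 1).

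Peripherin (AF031878_at) was not called either. It read 4144, 3904 and 4962 on the CCI 14-day arrays, against 4262 and 2690 on the sham 14-day arrays. On the CCI 21-day arrays it read 4701, 6140 and 6334, against 6267, 4217 and 4211 on the sham 21-day arrays. Only sham replicate 1 of each day reached the range of the CCI arrays. The log2 change over both days was 0.29 (95% interval -0.04 to 0.63, adjusted p 0.556).

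Alpha-internexin (M73049_at) read 770, 815 and 590 on the CCI 14-day arrays, against 587 and 612 on the sham 14-day arrays. On the CCI 21-day arrays it read 558, 636 and 817, against 381, 566 and 367 on the sham 21-day arrays. Ranges overlapped at both days, in 1 CCI array each. The log2 change over both days was 0.43 (95% interval -0.07 to 0.93, adjusted p 0.558).

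In CCI over both days, 3 of the 11 probe sets were called, all lower, against 2.29% of all probe sets tested. They were Nefl M25638_s_at, Nefh X13804cds_at and Map1b U52950_at, and the last was below background on every array, as set out with Map1b. At 14 days 2 were called, against 2.78% of all, and at 21 days 1, against 0.927% of all. In the test of the effect at 21 days minus that at 14 days 1 was called, Map1b U52950_at, against 1.80% of all. The median log2 change of the 11 was 0.20 over both days, beside 0 over all probe sets. In bulk ganglia, fewer cells of a type and less RNA per cell cannot be told apart.

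**Figure D2:**
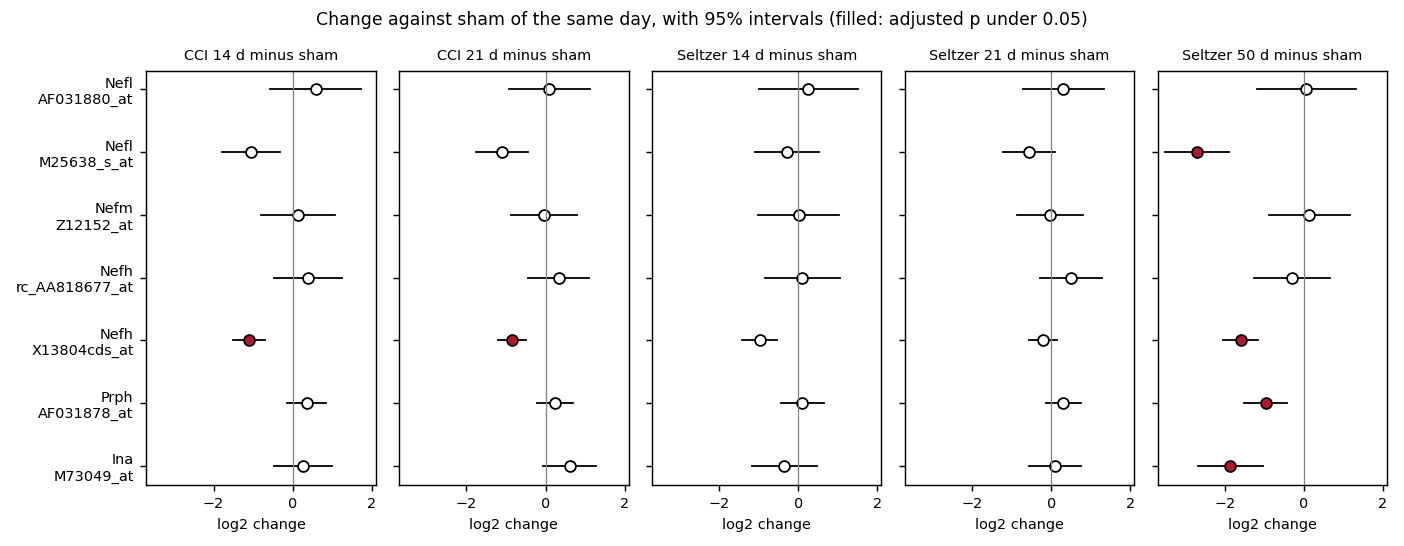
Log2 change against sham of the same day for the 7 probe sets above background on at least 10 arrays, with 95% intervals from limma. Filled points have an adjusted p under 0.05: Nefh X13804cds_at in CCI at 14 and 21 days, and 4 probe sets in Seltzer ganglia at 50 days.

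The split between probe sets of a gene was tested inside each array, where a scaling of the whole array largely cancels. This test, and the pairing of probe sets in it, was chosen after their values were seen. An array's shift that is unequal between probe sets does not cancel. On sham 21-day replicate 1 the log2 ratio was -1.99 for Nefl, against -0.49 and -0.57 on replicates 2 and 3. For Nefh it was -2.83 on replicate 1, against -1.77 and -1.75. For Nefl, the log2 ratio of M25638_s_at to AF031880_at was lower in CCI than in sham ganglia over 14 and 21 days by a log2 difference of -1.41. An exact permutation test with arrays exchanged within days gave p = 0.015 (two-sided, 6 CCI and 5 sham arrays), or 0.03 adjusted over 4 comparisons. For Nefh, the ratio of X13804cds_at to rc_AA818677_at was lower in CCI by a log2 difference of -1.34. The exact permutation p was 0.005, the smallest that the 200 arrangements allow, or 0.02 adjusted over the 4 comparisons. At the single days the Nefl differences were -1.63 at 14 days (exact permutation p = 0.1) and -1.19 at 21 days (p = 0.3), and the Nefh differences -1.497 and -1.18 (p = 0.1 at both), where 0.1 is the smallest p either day allows. Since the genes and pairs were picked for their split, these p-values are no independent evidence of it. Both ratios also moved between days in sham ganglia alone. At 14, 21 and 50 days the sham means were -0.22, -1.02 and -2.53 for Nefl. For Nefh they were -1.24, -2.11 and -3.03, so a lower ratio is not particular to the injured groups. Which stretch of the transcript each probe set reads is not given in the sources used here.

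**Figure D3:**
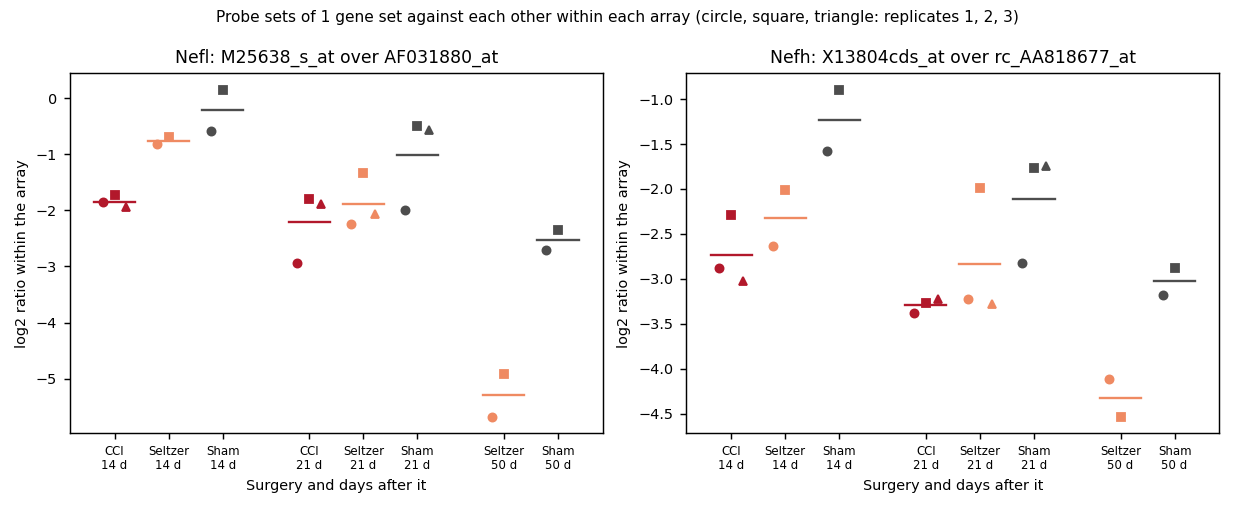
Log2 ratio of the 2 probe sets of Nefl (left) and of Nefh (right) within each array, by surgery and day. Points are arrays and bars group means. Sham means fell from 14 to 21 to 50 days in both genes. CCI arrays lie below sham arrays at 14 days in both genes, with Nefl at -1.95 to -1.73 in CCI and -0.59 to 0.16 in sham; at 21 days sham replicate 1 reaches the CCI range for Nefl and stays above it for Nefh.

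In Seltzer ganglia at 14 and 21 days, no probe set of these genes that rose above background was called. Nefh X13804cds_at read 474 and 635 on the Seltzer 14-day arrays, against 1003 and 1202 on the sham 14-day arrays. At 21 days it read 1111, 969 and 734 on the Seltzer arrays, against 1215, 1024 and 993 on the sham arrays. Groups were apart at 14 days and overlapped at 21 days. The log2 change was -0.98 (SE 0.20, adjusted p 0.113) at 14 days and -0.21 (SE 0.17, adjusted p 0.852) at 21 days, and -0.60 (SE 0.13, adjusted p 0.105) over both days.

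Nefl M25638_s_at read 3104 and 2753 on the Seltzer 14-day arrays, against 4623 and 2764 on the sham 14-day arrays. At 21 days it read 3118, 2497 and 2729 on the Seltzer arrays, against 4780, 3791 and 3724 on the sham arrays. The Seltzer arrays were below all sham arrays at 21 days but not at 14 days. The log2 change over both days was -0.42 (95% interval -0.94 to 0.10, adjusted p 1).

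The brighter probe sets overlapped with sham at both days. Nefl AF031880_at read 5457 and 4468 on the Seltzer 14-day arrays and 14741, 6339 and 11408 on the Seltzer 21-day arrays. Nefm read 4799 and 4005 at 14 days and 9181, 5229 and 8415 at 21 days in Seltzer ganglia. Nefh rc_AA818677_at read 3023 and 2611 at 14 days and 10531, 3904 and 7261 at 21 days in Seltzer ganglia. Prph read 4001 and 3293 at 14 days and 6999, 4858 and 6222 at 21 days in Seltzer ganglia. Replicate 2 was the lowest Seltzer array of 21 days in each of these 4 probe sets. Ina was less regular, at 589 and 367 in Seltzer ganglia at 14 days and at 266, 736 and 492 at 21 days.

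Over 14 and 21 days the log2 changes in Seltzer ganglia were 0.28 (95% interval -0.53 to 1.09) for Nefl AF031880_at and -0.01 (-0.67 to 0.65) for Nefm. They were 0.31 (-0.31 to 0.92) for Nefh rc_AA818677_at, 0.20 (-0.15 to 0.56) for Prph and -0.13 (-0.65 to 0.40) for Ina M73049_at. Adjusted p was 1 in limma for each of these. Of the 11 probe sets 1 was called, Map1b U52950_at, against 0.297% of all probe sets. The same probe set was the 1 called at 14 days, against 0.206% of all. At 21 days 0 were called, against 0.378% of all. There 0 of the 11 had an unadjusted p under 0.05 in limma, against 577 of all 8740.

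Within arrays, the ratio of M25638_s_at to AF031880_at differed between Seltzer and sham by a log2 difference of -0.70 over both days (exact permutation p = 0.0667, also 0.0667 after adjustment over the 4 comparisons). The ratio of X13804cds_at to rc_AA818677_at differed by -0.90 (exact permutation p = 0.05, adjusted 0.0667). Neither passed after adjustment, and the smallest p the 120 arrangements allow is 0.0167. As in CCI, the pairs of probe sets were picked after their values were seen, and the sham arrays are the same. These p-values are thus no independent evidence of a split. At 21 days, where same-numbered Seltzer and sham arrays deviated together, the ratio was lower on the Seltzer array in 3 of 3 pairs for both genes. The differences for replicates 1, 2 and 3 were -0.24, -0.85 and -1.49 for Nefl. For Nefh they were -0.40, -0.23 and -1.53. An exact permutation test within pairs gave p = 0.25 for each gene, the smallest that 3 pairs allow, so it could not have reached 0.05.

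CCI and Seltzer ganglia were also set against each other directly, since their changes from sham share the sham arrays. Of the 11 probe sets 0 were called in limma, against 0.927% of all. An unadjusted p under 0.05 in limma was found in 4 of the 11, against 785 of all 8740. Nefl M25638_s_at was lower in CCI than in Seltzer ganglia by a log2 change of -0.66 (95% interval -1.15 to -0.16, adjusted p 0.325). Nefh X13804cds_at had -0.38 (-0.65 to -0.12, adjusted p 0.265), and Ina M73049_at had 0.56 (0.06 to 1.06, adjusted p 0.478). The remaining one was Map1b U52950_g_at (2.66, interval 0.98 to 4.34, adjusted p 0.183). Nefm differed by 0.06 (-0.57 to 0.68) and Prph by 0.09 (-0.25 to 0.43).

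At 50 days, where only Seltzer and sham ganglia were collected, 4 of the 11 probe sets were called, all lower in Seltzer ganglia, against 15.9% of all probe sets tested. Nefl M25638_s_at read 170 and 263 on the Seltzer arrays, against 1432 and 1515 on the sham arrays. Ina M73049_at read 245 and 306 on the Seltzer arrays, against 1020 and 1052 on the sham arrays. Both fell below the background level of the Seltzer arrays, so the fold is a bound. Nefl M25638_s_at was at least 2.17-fold lower (adjusted p 0.00037) and Ina at least 1.53-fold lower (adjusted p 0.00533). These bounds set the sham geometric mean against the background level of the Seltzer arrays.

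Nefh X13804cds_at read 200 and 160 on the Seltzer 50-day arrays, against 544 and 609 on the sham arrays. Its log2 change was -1.60 (SE 0.20, adjusted p 0.000206), but the mean sham signal was below the mean background level of the Seltzer arrays, so no fold is given. Prph read 2178 and 1977 on the Seltzer arrays, against 3993 and 4157 on the sham arrays, all above background. It was 1.96-fold lower, with a log2 change of -0.97 (SE 0.25, adjusted p 0.0221). Leaving out any 1 of the 4 arrays ended the Prph call (adjusted p 0.068 and 0.0995 without Seltzer replicates 1 and 2, 0.0786 and 0.109 without sham replicates 1 and 2).

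The brighter neurofilament probe sets were not called at 50 days. Nefl AF031880_at read 9547 and 8383 on the Seltzer arrays, against 9438 and 7824 on the sham arrays (log2 change 0.06, 95% interval -1.20 to 1.31). Nefm read 6648 and 6617 on the Seltzer arrays, against 6176 and 5890 on the sham arrays (0.14, -0.88 to 1.16). Nefh rc_AA818677_at read 3718 and 4065 on the Seltzer arrays, against 5064 and 4568 on the sham arrays (-0.31, -1.26 to 0.65). The first of these overlapped, the second was higher and the third lower on both Seltzer arrays.

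The 50-day Seltzer arrays stood apart from all others in quality controls. The ratio of the 3′ to the middle GAPDH control signal was 8.89 and 5.10 on them, with the middle signals below background. Sham ganglia of 50 days had 2.84 and 2.85, and arrays of 14 and 21 days at most 2.04. The 5′ GAPDH signals went the other way. Seltzer replicates 1 and 2 of 50 days read 920 and 781, both above background, against 438 and 505 in sham. Their 3′ signals were 1066 and 1011, against 1543 and 1480 in sham. Relative to the 5′ signal, the 3′ signal was thus lower in Seltzer than in sham ganglia of 50 days. Probe sets above background made up 8.92% and 11.0% of the total on the Seltzer 50-day arrays, against 16.1% and 17.9% on the sham 50-day arrays. Cell type markers moved with the same arrays. The sum of the 8 small sensory neuron markers was 4938 to 5558 in Seltzer against 11533 to 11655 in sham ganglia at 50 days, and 4 of them fell and 0 rose (median log2 change -1.03). The sum of the 8 large neuron markers was 1251 to 1865 in Seltzer against 1730 to 2110 in sham ganglia, with 0 called. The sum of the 6 general neuron markers was 10465 to 10973 in Seltzer against 16001 to 18221 in sham ganglia, with 1 higher and 1 lower. The skeletal muscle sum over 10 markers was 4505 to 5927 in Seltzer against 1660 to 1978 in sham ganglia, and 4 rose and 0 fell (median 1.501). Among all 4736 genes 457 rose and 400 fell. On the Seltzer 50-day arrays 2 muscle, 2 small neuron and 0 to 1 large neuron markers were above background. On the sham 50-day arrays it was 1 to 3, 7 and 2 to 3. Most markers in these 3 sums were thus below background on the Seltzer arrays. The part of RNA quality and of these cell types in the 50-day differences, that of Prph included, was not tested. At 14 days the ratio of the 3′ to the middle GAPDH signal was 1.68 to 1.75 in CCI and 1.74 and 1.90 in sham ganglia. At 21 days it was 1.48 to 1.78 in CCI and 0.998 to 1.32 in sham ganglia. The 5′ signals of 21 days were 1354, 1827 and 1888 in CCI and 1458, 1846 and 1641 in sham ganglia. The 3′ signals of that day were 2271, 3459 and 3607 in CCI and 4518, 3512 and 3534 in sham ganglia. The part of RNA quality in the CCI differences was not tested.

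The members differed in level between days in sham ganglia too. Of the 11 probe sets 3 were called in an F test over 14, 21 and 50 days, against 8.48% of all. Nefl M25638_s_at changed by -1.46 on the log2 scale at 50 against 21 days (adjusted p of the F test 0.0327), and Nefh X13804cds_at changed by -0.88 between them (adjusted p 0.0129). The third was Map1b U52950_at. Without sham 50-day replicate 1 or without replicate 2 the count was 1, Map1b U52950_at alone. For Ina M73049_at, the change at 50 against 21 days was 1.24 (adjusted p of the F test 0.0943), in the other direction.

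The group means of Nefl M25638_s_at were 1721 ± 75.1 and 2044 ± 881 in CCI ganglia at 14 and 21 days, and 2929 ± 249, 2781 ± 314 and 217 ± 66.2 in Seltzer ganglia at 14, 21 and 50 days. In sham ganglia at 14, 21 and 50 days they were 3693 ± 1314, 4098 ± 591 and 1473 ± 58.4 (all mean ± SD). In the order of these means, the arrays of neighbouring groups overlapped except CCI 14 days against sham 50 days and Seltzer 50 days against sham 50 days. Those of Nefh X13804cds_at were 504 ± 85.5 and 589 ± 11.5 in CCI ganglia at 14 and 21 days, and 555 ± 114, 938 ± 191 and 180 ± 28.3 in Seltzer ganglia at 14, 21 and 50 days. In sham ganglia they were 1103 ± 141, 1077 ± 120 and 576 ± 45.5. Here the only neighbours that did not overlap were CCI 21 days against Seltzer 21 days and Seltzer 50 days against CCI 14 days. Sham ganglia of 14 and 21 days ranked highest in both probe sets, and Seltzer ganglia of 50 days lowest.

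Map1b gave 1 outstanding value. On CCI 21-day replicate 1, U52950_g_at read 8169, while the other 19 arrays read between 7.43 and 234. The other 2 CCI arrays of 21 days read 234 and 137, against 97.2, 162 and 156 on the sham 21-day arrays. CCI 21-day replicate 1 also had the highest median intensity of all arrays, 76.5 against 43.2 to 59.3, and its X16623cds_s_at signal of 171 was the highest of that probe set but below the array's background level. The log2 change of U52950_g_at over both days was 2.04 (SE 0.78, adjusted p 0.313 in limma).

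At 14 days U52950_g_at read 186, 189 and 160 on the CCI arrays, against 43.1 and 28.8 on the sham arrays. It read 7.43 and 13.4 on the Seltzer arrays of that day. The CCI arrays were higher than all others of 14 days, but 1 of them exceeded its background level, and no fold is given. The change was 1.92 (SE 1.16, adjusted p 0.687 in limma), and with the 21-day arrays numbered 1 left out together, chosen after seeing the data, it was called at 14 days (adjusted p 0.00168) and over both days (1.04, adjusted p 0.0148).

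U52950_at, the Map1b probe set called in several comparisons, never exceeded background. It read between -236 and -7.30 on 18 arrays, including all arrays of injured rats, and 12.5 and 11.0 on the sham 14-day arrays. Those 18 values were all set to 0 before the log2, which left nearly no spread, so the call rests on those 2 sham values. Its log2 change was -0.40 over both days in CCI (adjusted p 2.06e-07) as in Seltzer ganglia (adjusted p 1.96e-06), and 0 with a floor at 200. Both groups were below background, so no fold is given.

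**Figure D4:**
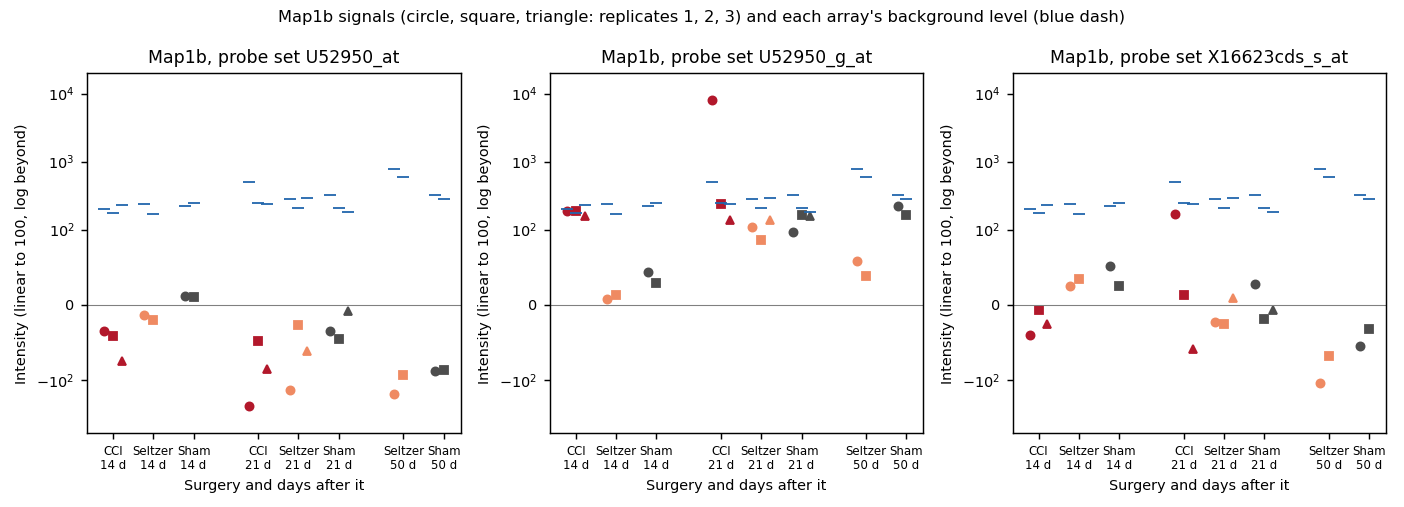
Intensities of the 3 Map1b probe sets by surgery and day, on an axis that is linear up to 100 and logarithmic beyond. Points are arrays and blue dashes each array's background level; apart from CCI 21-day replicate 1 at 8169 and CCI 14-day replicate 2 at 189 in U52950_g_at, no point lies above its dash.

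Across arrays some of the members moved together. Over the 20 arrays, which share groups and scale, the log2 values of Nefl AF031880_at and Nefm correlated at r = 0.942, those of Nefl AF031880_at and Nefh rc_AA818677_at at 0.895, and those of Nefm and Nefh rc_AA818677_at at 0.890. Nefl M25638_s_at and Nefh X13804cds_at correlated at 0.881. The 2 Nefl probe sets had r = -0.09 with each other and the 2 Nefh probe sets 0.14. After group means were removed, Nefl AF031880_at and Nefm had r = 0.963 and Nefl AF031880_at and Prph 0.904, while Nefl M25638_s_at and Nefh X13804cds_at had -0.18. These last 2 thus moved together between groups but not within them. The 2 Nefl probe sets then had r = 0.49 with each other and the 2 Nefh probe sets 0.11.

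Replicate 1 of 21 days was high in Seltzer and sham ganglia alike. It had the highest signal of its group in Nefl AF031880_at, Nefm, Nefh rc_AA818677_at and Prph on both arrays. The summed signal of the 6 measured neuron markers was 28378 on that Seltzer array and 31265 on that sham array. The sum of 7 satellite glia markers was 25270 on that Seltzer array and 29295 on that sham array. On replicates 2 and 3 it was 8256 and 16438 in Seltzer and 9736 and 9629 in sham ganglia. Of these markers, Kcnj10, Gja1 and Slc1a3 were never above background. Apoe had the largest mean of the list in both groups, 9934 in sham ganglia at 21 days. The part of these markers in the 21-day results was not tested. With the 21-day arrays numbered 1 left out together, the CCI changes over both days were -0.80 (adjusted p 0.016) for Nefl M25638_s_at, -0.94 (adjusted p 0.00286) for Nefh X13804cds_at, 0.67 (adjusted p 0.293) for Nefl AF031880_at, 0.30 (adjusted p 0.576) for Nefm and 0.46 (adjusted p 0.12) for Prph.

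The genes whose log2 values tracked each member most closely were sought among 1349 probe sets above background on at least 10 arrays. For Nefl AF031880_at they were Rps29 (r = 0.959), Fstl1 (0.943) and Nefm (0.942). For Nefm they were Sncg (0.953), Nefl (0.942) and Rps29 (0.934). Nefh rc_AA818677_at was most like Sncg (0.928), COX1 (0.920) and Gnas (0.917), and Prph was most like Gnas (0.953), Basp1 (0.952) and Uchl1 (0.923). Sncg codes for gamma-synuclein and Uchl1 for a neuronal ubiquitin hydrolase. Ina followed Rpl30 (0.816), Rpl3 (0.786) and Cyfip2 (0.748) less closely. Map1b, above background on 2 arrays, was not compared.

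Few genes of the wider cytoskeleton were called in CCI ganglia. Of 37 microtubule proteins and partners, 18 were measured, and over both days 2 rose and 0 fell, with a median log2 change of 0.23. They were the axonal microtubule protein tau, Mapt (0.47, adjusted p 0.0114), and Dpysl2 (0.71, adjusted p 0.0164), which binds tubulin in growing axons. The 14-day changes were 0.88 for Mapt and 1.40 for Dpysl2, and the 21-day changes 0.06 and 0.02. The effect at 21 minus 14 days was -0.81 for Mapt (adjusted p 0.0341) and -1.37 for Dpysl2 (adjusted p 0.0255). Set directly against Seltzer ganglia, CCI ganglia had a log2 change of 1.00 for Dpysl2 (adjusted p 0.00264). Among all 4736 genes represented, 63 rose and 50 fell in CCI against sham, with a median of 0.

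Of 11 measured intermediate filament genes other than the members, 0 were called in CCI over both days, with a median log2 change of 0.15. Vim, the filament protein of glia and fibroblasts, had 0.31 (adjusted p 0.428) and Nes 0.15 (adjusted p 0.87). Of 8 measured spectrins, ankyrins and cross-linkers 1 rose, the filament linker Plec (0.64, adjusted p 0.0053). By day, 1 gene of this list rose in CCI at 14 days and 0 at 21 days. In the test of the effect at 21 days minus that at 14 days, 1 was called, lower. Over both days, none of 8 axonal transport motors and none of 18 kinases and phosphatases known to act on neurofilament tails or Map1b was called. At 14 days alone 1 motor rose, the dynein subunit Dync1li2 (0.43, adjusted p 0.0139). In Seltzer ganglia over 14 and 21 days, 0 genes of these 5 lists were called, with medians between -0.13 and 0.10, beside 13 higher and 5 lower among all genes. At 21 days alone Mapt rose in Seltzer ganglia (0.71, adjusted p 0.0201).

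At 50 days genes of these lists were called as well. Of the microtubule list 1 rose and 4 fell in Seltzer ganglia, of the other intermediate filament genes 2 rose and 1 fell, and of the transport motors 0 rose and 4 fell. Tau (Mapt) changed by -1.46 (adjusted p 2.5e-05) and the dendritic microtubule protein Map2 by -1.05 (adjusted p 0.00714). The nuclear lamin Lmna changed by 2.62 (adjusted p 0.00215). Among all genes 457 rose and 400 fell, and these values come from the same 2 Seltzer arrays with the low GAPDH middle signal.

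Most of the axotomy markers rose after both injuries at 14 and 21 days. Of 8 measured, 5 rose and 0 fell in CCI over both days, with a median log2 change of 1.67, beside 63 genes that rose and 50 that fell among all 4736. In Seltzer ganglia over both days 5 rose and 0 fell, with a median of 1.20, beside 13 higher and 5 lower among all genes. At 50 days 2 rose and 0 fell in Seltzer ganglia, with a median of 0.63, beside 457 higher and 400 lower. Among them Gap43, a growth cone protein, changed by 1.24 in CCI (adjusted p 0.00264) and 1.18 in Seltzer ganglia (adjusted p 0.0214).

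Markers of other cells moved with the groups. The macrophage sum over 7 measured markers, of which 4 were never above background, was 4199 to 5242 in CCI against 1942 to 2217 in sham ganglia at 14 days. At 21 days it was 3607 to 4519 in CCI against 1153 to 1781 in sham ganglia. The skeletal muscle sum over 10 markers, with Des never above background, was 11115 to 12570 in CCI against 5455 to 6214 in sham ganglia at 14 days, and 1642 to 2485 in CCI against 5507 to 5989 in sham ganglia at 21 days. The sum over 8 markers of large myelinated neurons was 2758 to 2920 in CCI against 2988 to 3416 in sham ganglia at 14 days. At 21 days it was 2353 to 2648 in CCI against 3092 to 3374 in sham ganglia, with Ntrk2, Kcna2, Scn8a and Vsnl1 above background on no array. Spp1 made up most of it in CCI, with means of 1788 at 14 and 1746 at 21 days, against 1680 and 1508 in sham. Kcna1 went the other way, at 246 and 182 in CCI against 741 and 496 in sham. Pvalb was counted in this list and in the skeletal muscle list. The sum over 8 markers of small sensory neurons, all above background on some array, was 5700 to 6158 in CCI against 8569 to 9315 in sham ganglia at 14 days, and 5765 to 7312 in CCI against 6368 to 9108 in sham ganglia at 21 days. Over both days 2 of these 8 fell in CCI, the sodium channels Scn10a (-1.06, adjusted p 0.00479) and Scn11a (-1.11, adjusted p 0.000958), and 1 of the 8 markers of large neurons fell. The sum over 6 general neuron markers, with Syt1 never above background, was 11065 to 13862 in CCI against 8784 to 11518 in sham ganglia at 14 days, and 12728 to 15752 in CCI against 13435 to 31265 in sham ganglia at 21 days. Of these 6, Snap25 fell in CCI over both days (-0.60, adjusted p 0.00744) and 0 rose. The part of these cell types in the Nefl and Nefh differences was not tested.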

How the data were processed

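The intensity values were used as deposited by the authors, 1 linear column per sample and 8799 probe sets; for the software, background step and scaling, the method was not given in the sources used here. All 59 array controls were left out of the tests, and their GAPDH signals served for quality. Of the 8740 probe sets left, 7006 had 1 gene symbol, 308 several and 1426 none in the platform annotation, with symbols brought up to date through Entrez ID and rat RefSeq (GRCr8).

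Negative values were raised to 0 before log2(intensity + 16). limma 3.58.1 (lmFit, eBayes) with statmod 1.5.0 in R 4.3.3 fitted a mean for each of 8 groups with 12 residual degrees of freedom. Tests were two-sided, with Benjamini-Hochberg adjustment over all 8740 probe sets and a threshold of 0.05. Exact permutation tests and figures used Python 3.11.15, scipy 1.17.1 and matplotlib 3.10.9. The fit was tested on simulated data.

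Members, lists, tests and alternatives were chosen with earlier results of these data known. Every member probe set is named. Genes most like a member are the 3 with the highest r to its brightest probe set, and from the other lists those past the threshold in the CCI or Seltzer mean over 14 and 21 days, or up to 4 with the largest change. Named outside that rule, after their values were seen, were Vim, Nes, Map2, Lmna and Dync1li2. Each listed gene was represented by its brightest probe set.

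Labels of 3 CCI arrays call the replicate number a lot batch. Deviations from group means correlated at 0.299, 0.226 and 0.110 at 21 days between same-numbered Seltzer and sham arrays. Seltzer replicate 2 and sham replicate 3 had 0.159, so the values do not fix the pair numbered 3. Same-numbered CCI and sham arrays of 21 days had 0.061, 0.088 and 0.093, and their differently numbered arrays were all below 0. Apart from Seltzer and sham at 21 days, no groups with 3 numbers had every same-numbered pair over 0.1. A lone array, where its partner was left out, is taken to vary as the other groups do.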

Additional observations from a re-analysis of the deposited data

Results flagged for a closer look

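The change of Map1b probe set U52950_at in CCI ganglia differed between days by a test of the difference itself. The CCI effect at 21 days minus that at 14 days was 0.79 on the log2 scale (adjusted p 3.43e-07 in limma). All 20 arrays were below background in this probe set, and with a floor at 200 the difference was 0. The value comes from the 2 sham 14-day arrays, the only ones above 0.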

How the results depend on the processing

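No called change of a member between 2 surgeries reversed its sign in any alternative. The counts of called member probe sets that moved by over 1.5 times are given here, as counts of the 11. Over all settings the number called among all probe sets moved too. It was 86 to 518 for CCI over both days, 58 to 784 at 14 days and 13 to 136 at 21 days. In Seltzer it was 15 to 383 over both days and 0 to 66 at 14 days. At 21 and 50 days it was 0 to 56 and 660 to 2531. It was 43 to 309 for CCI minus Seltzer and 442 to 1748 for sham over days. For the CCI effect at 21 minus 14 days it was 32 to 344. Nefh X13804cds_at remained called in CCI over 14 and 21 days in 34 of 34 alternatives, which include fits that left out 1 array of another group. With arrays centred on their median the counts were 1 for CCI over both days, 0 for CCI at 14 days, 0 for Seltzer over both days, 0 for Seltzer at 14 days, 0 for the CCI effect at 21 minus 14 days, and 0 for sham over days. That centring moved the median log2 change of all probe sets by 0.12 for CCI at 14 days, -0.17 for CCI at 21 days, -0.34 for Seltzer at 50 days and -0.26 for the CCI effect at 21 minus 14 days. With sham ganglia of 21 days as the control at either day the counts were 1 for CCI over both days, 1 at 14 days and 0 for the effect difference. A floor at 200 gave 0 for Seltzer over both days, 1 for CCI at 14 days, 0 for Seltzer at 14 days and 0 for the effect difference. Leaving out the dimmest probe sets gave 0 for Seltzer over both days, 1 for CCI at 14 days, 0 for CCI at 21 days, 0 for Seltzer at 14 days, 0 for the effect difference and 1 for sham over days. Array weights gave 5 for CCI at 14 days, 2 for Seltzer at 14 days, 1 for CCI minus Seltzer, 2 for the effect difference and 6 for sham over days. Quantile normalization gave 2 for CCI at 21 days and 5 for sham over days. Only the groups compared gave 0 for CCI at 21 days and 0 for Seltzer at 14 days. Leaving out the 50-day arrays gave 0 for CCI at 21 days, and the mean of 14, 21 and 50 days gave 3 for Seltzer. With the 21-day arrays numbered 1 left out together, added after seeing the data, the counts were 5 for CCI at 14 days, 0 for CCI at 21 days, 1 for CCI minus Seltzer, 3 for the effect difference and 6 for sham over days.

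Leaving out single arrays gave 2 to 4 for CCI over both days, 1 to 5 for CCI at 14 days, 0 to 1 for CCI at 21 days, 1 to 1 for Seltzer over both days and for Seltzer at 14 days, 0 to 0 for Seltzer at 21 days, 3 to 5 for Seltzer at 50 days, 0 to 1 for CCI minus Seltzer, 1 to 1 for the effect difference and 1 to 4 for sham over days. The count of 5 at 14 days came without CCI 21-day replicate 1, as did the 1 for CCI minus Seltzer.

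With the replicate number as a block, 2 were called in CCI over both days, where Nefl M25638_s_at had an adjusted p of 0.0523, and 2 in sham over days, where it had 0.07. The block changed no other call. For Seltzer at 21 days, where same-numbered arrays deviated together, a block within the 2 groups compared gave 0. Values near background, 4 of the 11 probe sets, limit what can be said of Map1b and of the 50-day arrays. The cause of these movements was not tested.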
